A study of Homo sapiens with 16 samples.

Results

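The data cover 8 genes of the aryl hydrocarbon receptor pathway in 2 human bladder cancer cell lines. They were chosen by name as the receptor AHR, its dimerization partner ARNT, the inhibitors AHRR and TIPARP, and the target genes CYP1A1, CYP1B1, ALDH3A1 and NQO1. Each had 1 row among the 58721 genes of the count table and of the TPM table. RT112, a luminal papillary line, was grown in RPMI, and SCaBER, a basal/squamous line, in DMEM, both with fetal bovine serum, so line and medium cannot be told apart. By Lipofectamine, at 10 nM per the labels, each line received siFOXA1.1 or siFOXA1.2, which target the luminal transcription factor FOXA1, or a control, siControl.1 or siControl.2. Each siRNA has 2 libraries per line, which the labels number as experiment batch replicates 1 and 2, giving 16 libraries of 3' mRNA sequencing from a short-term knock-down. Each line is a single culture model, and no AHR ligand is named among the treatments. Nothing further says that the 2 libraries of an siRNA came from separate cultures, so p-values measure the spread between these libraries.

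AHR is a ligand-activated transcription factor that waits in the cytoplasm bound to HSP90 and p23. Once it has bound a ligand, such as a polycyclic aromatic compound or a tryptophan metabolite, it enters the nucleus, pairs with ARNT and binds short sites with the core GCGTG. It induces the cytochrome P450 genes CYP1A1 and CYP1B1 and the detoxifying enzymes ALDH3A1 and NQO1, and it also induces AHRR and TIPARP, which repress the receptor in turn. The bladder lining meets such ligands in urine, and NQO1 is also a standard target of NRF2, the regulator of the antioxidant response.

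The genes lie on 8 chromosomes in the GRCh38.p14 annotation. AHR spans chr7:17298652-17346147, ARNT chr1:150809713-150876599, AHRR chr5:321714-438285 and TIPARP chr3:156674590-156706770. CYP1A1 spans chr15:74719542-74725528, CYP1B1 chr2:38067509-38076151, ALDH3A1 chr17:19737984-19748298 and NQO1 chr16:69709401-69726560. All 8 are annotated as protein-coding. AHRR lies inside the span of the readthrough gene PDCD6-AHRR, which has no row of its own in the count table, so AHRR counts are uncertain.

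Promoter windows from RefSeq (GRCh38.p14) matched 6 of the 8 genes, in 9 windows, and CYP1B1 and ALDH3A1 were not among them. The 250 bases before a start are shown 5' to 3' on the strand of the gene for CYP1A1 and NQO1, the targets that passed a test, and for TIPARP and AHRR, the repressors that AHR itself induces. Capitals mark the AHR core GCGTG, or CACGC where it is on the other strand.

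CYP1A1 (chr15:74725529-74725778, minus strand): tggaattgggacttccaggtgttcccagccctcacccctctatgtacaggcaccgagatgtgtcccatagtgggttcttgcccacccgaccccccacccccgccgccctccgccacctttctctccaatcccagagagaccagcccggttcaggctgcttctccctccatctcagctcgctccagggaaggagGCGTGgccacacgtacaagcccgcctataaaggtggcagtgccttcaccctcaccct
TIPARP, first of 3 windows (chr3:156674340-156674589, plus strand): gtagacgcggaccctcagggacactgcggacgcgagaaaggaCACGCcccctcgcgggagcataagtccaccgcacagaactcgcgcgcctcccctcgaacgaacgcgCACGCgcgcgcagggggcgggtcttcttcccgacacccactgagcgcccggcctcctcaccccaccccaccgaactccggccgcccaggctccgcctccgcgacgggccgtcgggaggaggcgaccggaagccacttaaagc
AHRR, first of 2 windows (chr5:321464-321713, plus strand): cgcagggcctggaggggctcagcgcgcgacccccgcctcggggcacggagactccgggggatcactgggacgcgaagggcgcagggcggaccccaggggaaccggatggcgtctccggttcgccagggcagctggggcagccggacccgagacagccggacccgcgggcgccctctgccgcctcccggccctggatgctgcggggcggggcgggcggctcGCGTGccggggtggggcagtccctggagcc
NQO1 (chr16:69726561-69726810, minus strand): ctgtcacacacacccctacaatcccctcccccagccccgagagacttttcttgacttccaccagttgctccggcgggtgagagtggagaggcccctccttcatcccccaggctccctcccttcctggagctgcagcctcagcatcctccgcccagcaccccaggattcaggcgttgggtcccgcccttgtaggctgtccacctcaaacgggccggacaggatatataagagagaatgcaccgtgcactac

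The core was present 1 time in the CYP1A1 window, 1 time in the first AHRR window and 2 times in the second. In the first TIPARP window it was present 2 times, both on the other strand, and it was absent from the other TIPARP windows. It was absent from the NQO1 window and from the windows of AHR and ARNT. Searched on both strands, GCGTG was in 32.2% of all 35116 windows of this length. The longer form TNGCGTG, which contains the core, was in 4.52% of them and, among the 6 genes with windows, in the first AHRR window alone. The antioxidant motif TGACNNNGC was in 10.9% of all windows and in the ARNT window, and the forkhead motif TGTTTAC was in 2.98% and in none of the 9. A match describes these letters and is not a bound site, and sites farther from the start were outside the windows.

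Levels are given as CPM, the counts of a gene scaled to the library total, with the first value from replicate 1 and the second from replicate 2. Library totals ranged from 6622473 to 7604581 counts in RT112 and from 4528513 to 6914951 in SCaBER, so that 3 counts, taken as the floor, were worth 0.395 to 0.453 CPM and 0.434 to 0.662 CPM. Floors and the counting intervals of count ratios cover counting error only. FOXA1, the target, stood at 34.98 and 29.4 CPM under siControl.1, 18.2 and 28.4 under siControl.2, 1.32 and 3.24 under siFOXA1.1 and 9.18 and 16.0 under siFOXA1.2 in RT112. It was lower in all 4 siFOXA1 libraries than in any control, but it passed the test under siFOXA1.1 (log2 fold change -3.45, SE 0.47, adjusted p = 1.39e-05) and not under siFOXA1.2 (-1.10, SE 0.39, adjusted p = 0.215). In SCaBER FOXA1 lay between 0 and 2.43 CPM, so the knock-down could not be judged there. Of 8 luminal and 8 basal markers, 7 and 7 were detected in RT112 and 5 and 8 in SCaBER, and the summed basal markers were 332 to 728 CPM in RT112 against 2580 to 4173 in SCaBER. Immune and endothelial markers summed to at most 3.98 and 11.2 CPM in any library, and fibroblast markers to 84.6 to 146 CPM in RT112 and 10.0 to 45.1 in SCaBER.

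Log2 fold changes, standard errors and adjusted p-values are from edgeR's quasi-likelihood test with Benjamini-Hochberg adjustment over all genes tested, at a threshold of 0.05. Each siFOXA1 siRNA was set against the mean of both controls of its line. Under siFOXA1.1 in RT112, 1 of the 7 members tested passed, whereas 29.1% of all 13462 genes did. Under siFOXA1.2 in RT112 it was again 1 of 7, against 1.78% of genes. Under siFOXA1.1 in SCaBER 1 of 8 passed, against 7.87% of 13407 genes. Under siFOXA1.2 in SCaBER 0 of 8 passed with edgeR and 0 with DESeq2, against 0.0373% of genes. At an unadjusted p under 0.05 it was 1 of 8 (TIPARP), against 702 of 13407 genes. The median log2 change of the members was 0.01, -0.15, -0.10 and -0.34 in these 4 comparisons, beside medians of -0.02, 0.02, 0.01 and 0.01 over all genes tested. A single call among 7 or 8 genes was thus below the share of all genes under siFOXA1.1 in RT112 and near it in SCaBER.

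**Figure D1:**
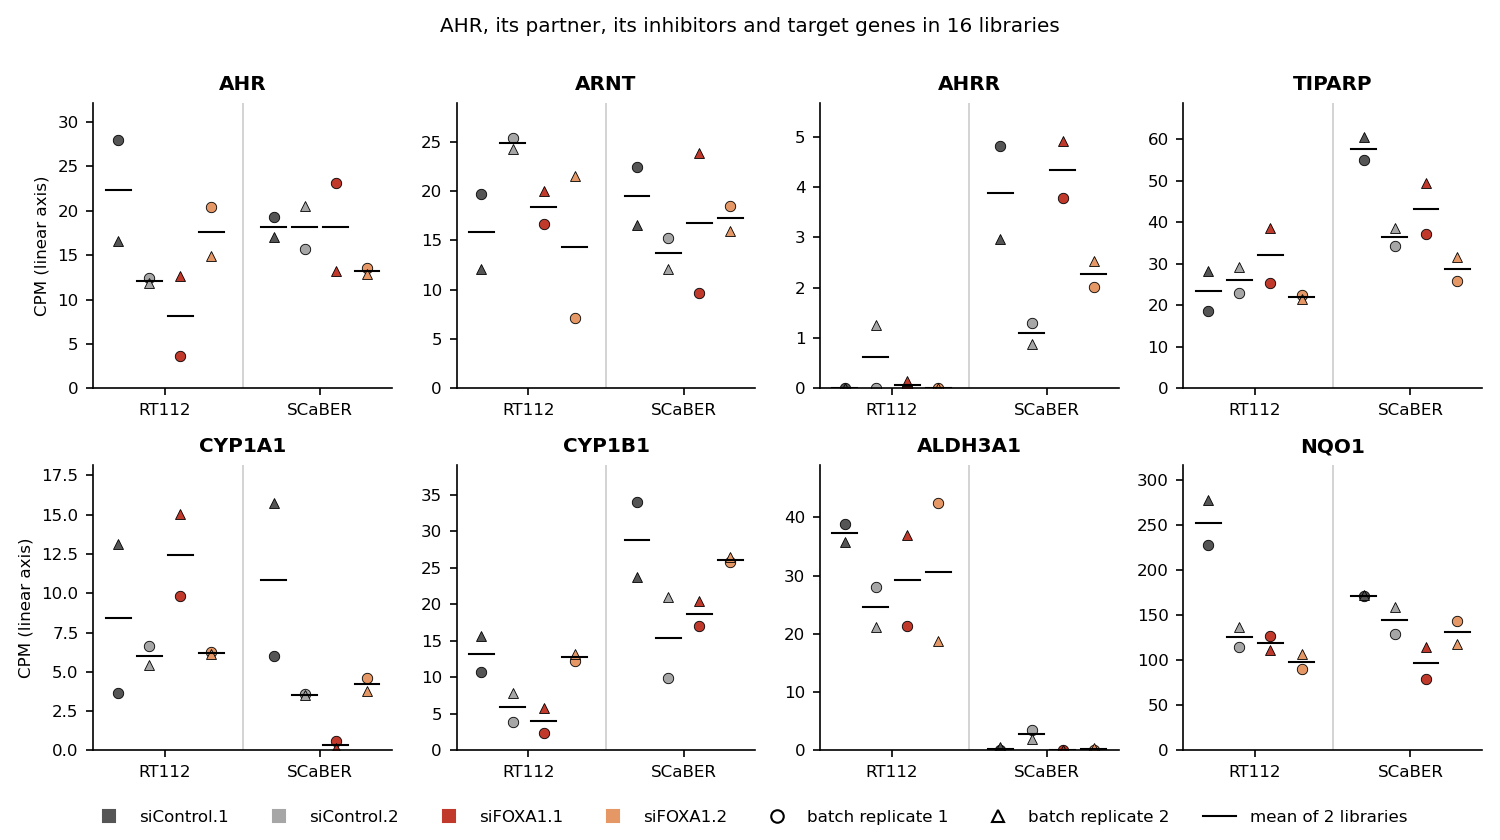
Level of each gene in CPM (linear axes from 0) in the 16 libraries, by line and siRNA, where circles and triangles are batch replicates 1 and 2 and bars the mean of 2 libraries. CYP1A1 was at 0.568 and 0.145 CPM in SCaBER under siFOXA1.1, below all other SCaBER libraries, and NQO1 in RT112 was highest under siControl.1.

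AHR, the receptor, was present in every library of both lines and passed the test under none of the siRNAs. In RT112 it stood at 28.0 and 16.6 CPM under siControl.1, 12.4 and 11.8 under siControl.2, 3.66 and 12.7 under siFOXA1.1 and 20.4 and 14.9 under siFOXA1.2. The value of 3.66 CPM (25 counts) in replicate 1 of siFOXA1.1 was the lowest of all, while replicate 2 of the same siRNA lay within the controls. The log2 fold change under siFOXA1.1 was -0.87 (SE 0.45, adjusted p = 0.160), with a 95% interval of -1.76 to 0.01. With replicate 1 of siFOXA1.1 alone it was -2.07 and passed (adjusted p = 0.0014). Under siFOXA1.2 it was 0.12 (SE 0.42, adjusted p = 0.965), with an interval of -0.71 to 0.95. In SCaBER AHR stood at 19.3 and 17.0 CPM under siControl.1, 15.7 and 20.5 under siControl.2, 23.1 and 13.2 under siFOXA1.1 and 13.6 and 12.8 under siFOXA1.2. Of the 4 siFOXA1 libraries, 3 lay below every control and the remaining one above them all. The interval of the change was -0.70 to 0.77 for siFOXA1.1 and -1.19 to 0.32 for siFOXA1.2.

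ARNT, the partner that AHR shares with other transcription factors of its family, also passed no test under the siFOXA1 siRNAs. In RT112 it stood at 19.7 and 12.1 CPM under siControl.1, 25.4 and 24.3 under siControl.2, 16.7 and 20.04 under siFOXA1.1 and 7.14 and 21.6 under siFOXA1.2. In SCaBER the values were 22.5 and 16.5 CPM, 15.3 and 12.1, 9.66 and 23.9, and 18.5 and 16.0, in the same order of siRNAs. The replicates of 1 siRNA differed by as much as the siRNAs did in both lines. The change under siFOXA1.1 had an interval of -0.74 to 0.76 in RT112 and of -0.74 to 0.85 in SCaBER, and under siFOXA1.2 of -1.22 to 0.32 and of -0.69 to 0.89.

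AHRR, which competes with AHR for ARNT, separated the lines more than the siRNAs. In RT112 it had 9 counts in replicate 2 of siControl.2 (1.25 CPM), 1 count in replicate 2 of siFOXA1.1 (0.147 CPM) and 0 in the other 6 libraries, each of which allows up to the floor of 3 counts. In SCaBER it had counts in all 8 libraries, at 4.83 and 2.96 CPM under siControl.1, 1.298 and 0.883 under siControl.2, 3.79 and 4.92 under siFOXA1.1 and 2.01 and 2.54 under siFOXA1.2. Both siControl.1 libraries were above both siControl.2 libraries there, and the siFOXA1 values lay between or just above them. Over the controls, 60 counts in SCaBER against 9 in RT112 made AHRR 8.35-fold higher in SCaBER (counting interval 4.12 to 19.1), and over all 8 libraries per line, 143 counts against 10, 16.9-fold (8.91 to 35.9). All 9 control counts of RT112 came from 1 library, and without it AHRR was at least 18.8-fold higher in SCaBER, taken against a floor of 3 counts over the other 3 controls. With the spread between libraries included, the difference under siControl did not pass (log2 -2.94, SE 1.35, adjusted p = 0.0858, in a fit without the filter on low counts). In SCaBER the change was 1.09 (SE 0.97, adjusted p = 0.590) under siFOXA1.1 and 0.15 (SE 0.99, adjusted p = 1.00) under siFOXA1.2. Depth limits AHRR in RT112, where a change could not be detected.

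TIPARP, a mono-ADP-ribosyltransferase that marks AHR for decay, was higher in SCaBER and passed no test under the siFOXA1 siRNAs. In RT112 it stood at 18.5 and 28.2 CPM under siControl.1, 23.02 and 29.3 under siControl.2, 25.3 and 38.7 under siFOXA1.1 and 22.6 and 21.6 under siFOXA1.2. In SCaBER it stood at 55.1 and 60.5 CPM under siControl.1, 34.4 and 38.6 under siControl.2, 37.1 and 49.5 under siFOXA1.1 and 25.8 and 31.7 under siFOXA1.2. The siFOXA1.2 libraries of SCaBER were below all 4 controls, while the siFOXA1.1 libraries lay between the controls. The change under siFOXA1.2 in SCaBER was -0.65 (SE 0.26, unadjusted p = 0.0244, adjusted p = 0.872 in edgeR), and the 2 controls differed by 0.65 (SE 0.29, adjusted p = 0.781).

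CYP1A1, the monooxygenase gene most used as a readout of AHR activity, gave the largest change of the 8 genes among those that passed. In SCaBER it stood at 5.99 and 15.7 CPM under siControl.1, 3.57 and 3.53 under siControl.2, 0.568 and 0.145 under siFOXA1.1 and 4.63 and 3.80 under siFOXA1.2. In counts, the siFOXA1.1 libraries held 3 and 1, against 16 to 101 in the controls and 24 to 30 under siFOXA1.2. Both siFOXA1.1 libraries lay below the other 6, at or around the floor, and the siFOXA1.2 libraries lay within the range of the controls. CYP1A1 fell under siFOXA1.1 (log2 fold change -4.07, SE 1.05, adjusted p = 0.0254), and the summed counts, 4 against 175, made it 23.1-fold lower with a counting interval of 8.86 to 85.7. Without replicate 2 of siControl.1, which held 101 of the control counts, the ratio was 13.5-fold (5.06 to 50.9). The change under siFOXA1.2 was -0.53 (SE 0.79, adjusted p = 1.00), with an interval of -2.09 to 1.02. Within batches, on log2 CPM with a prior count of 2, siFOXA1.1 was -2.39 from the mean of its controls in replicate 1 and -4.20 in replicate 2. Set directly against siFOXA1.2, the change under siFOXA1.1 was -3.54 (SE 1.09, adjusted p = 0.0891). The call depended on the control: the change was -4.86 (adjusted p = 0.0205) from siControl.1 alone and -3.28 (adjusted p = 0.0996) from siControl.2 alone, and it was lost without replicate 2 of siControl.1 (-3.64, adjusted p = 0.109) or without replicate 2 of siFOXA1.1 (-3.33, adjusted p = 0.0944).

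In RT112 CYP1A1 did not pass under the same siRNA. It stood at 3.68 and 13.1 CPM under siControl.1, 6.65 and 5.42 under siControl.2, 9.81 and 15.0 under siFOXA1.1 and 6.27 and 6.15 under siFOXA1.2. The siFOXA1.1 libraries were above 3 of the 4 controls, and 1 of them was above all 4. The change was 0.93 (SE 0.51, adjusted p = 0.189), with an interval of -0.08 to 1.94, and under siFOXA1.2 it was -0.18 (SE 0.54, adjusted p = 0.960). The difference between the lines in the siFOXA1.1 change was itself tested over all 16 libraries, as RT112 minus SCaBER, and CYP1A1 passed (log2 5.00, SE 1.07, adjusted p = 0.0133). Of the 8 members CYP1A1 alone passed there, against 2.59% of the 15464 genes tested. It passed in all 16 fits that left out 1 library, with log2 values from 4.27 to 6.15. For siFOXA1.2 the difference between the lines passed for 0 of 8 members with edgeR and 0 with DESeq2, against 0.0453% of genes. At an unadjusted p under 0.05 it was 1 of 8 (NQO1), against 902 of 15464 genes.

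Interferon and cell cycle genes moved with siFOXA1.1 in both lines. The 8 interferon markers summed to 7001 to 9082 CPM in SCaBER under siFOXA1.1 against 1318 to 2278 under the controls, and to 1559 to 1974 CPM in RT112 against 169 to 231. All 8 passed upward in SCaBER, against 7.87% of all genes, and 6 of 8 in RT112, against 29.1%. Their median log2 changes were 2.94 and 3.21. The 8 cell cycle markers all passed downward under siFOXA1.1 in both lines, with medians of -1.43 in SCaBER and -2.85 in RT112, and the mitochondrial share of RT112 counts was 25.7% to 28.2% under siFOXA1.1 and 18.0% to 21.2% elsewhere. Under siFOXA1.2 no gene of either list passed in either line (0 of 8 each, edgeR), against 1.78% of all genes in RT112 and 0.0373% in SCaBER. Luminal and basal markers moved in RT112 under both siRNAs, where 29.1% of all genes passed under siFOXA1.1 and 1.78% under siFOXA1.2. Of 6 luminal markers tested, FOXA1 among them, 5 fell under siFOXA1.1 and 2 under siFOXA1.2 (medians -0.96 and -1.003), and of 7 basal markers 3 rose and 1 fell under siFOXA1.1 and 2 rose under siFOXA1.2 (medians 0.40 and 0.54). Between the RT112 controls 2 luminal markers were higher under siControl.1 and 1 basal marker lower, against 2.11% of all genes. In SCaBER 1 of 5 luminal and 0 of 8 basal markers passed under siFOXA1.1, together near the 7.87% of all genes. None passed under siFOXA1.2 (edgeR). The part of these lists in the CYP1A1 and NQO1 values was not tested.

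CYP1B1, the related monooxygenase that also acts on oestrogens, passed no test against the controls. In RT112 it stood at 10.8 and 15.7 CPM under siControl.1, 3.86 and 7.92 under siControl.2, 2.34 and 5.75 under siFOXA1.1 and 12.2 and 13.2 under siFOXA1.2. The siFOXA1.1 and siControl.2 libraries overlapped and so did the siFOXA1.2 and siControl.1 libraries, and the first pair lay below the second. The change was -0.99 (SE 0.53, adjusted p = 0.177) under siFOXA1.1 and 0.55 (SE 0.49, adjusted p = 0.767) under siFOXA1.2. With replicate 1 of siFOXA1.1 alone the first was -1.81 and passed (adjusted p = 0.0367). The direct comparison of both siFOXA1 siRNAs gave -1.54 (SE 0.60, adjusted p = 0.0673), and it passed with a replicate block (-1.66, adjusted p = 0.0346). In SCaBER CYP1B1 stood at 33.9 and 23.7 CPM under siControl.1, 9.90 and 21.0 under siControl.2, 17.0 and 20.4 under siFOXA1.1 and 25.8 and 26.5 under siFOXA1.2. All siFOXA1 libraries lay within the range of the controls, with intervals of -0.85 to 0.57 for siFOXA1.1 and -0.35 to 1.02 for siFOXA1.2.

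ALDH3A1, an aldehyde dehydrogenase, was nearly confined to RT112, without passing under any siFOXA1 siRNA. In RT112 it stood at 38.8 and 35.8 CPM under siControl.1, 28.1 and 21.1 under siControl.2, 21.4 and 36.98 under siFOXA1.1 and 42.4 and 18.8 under siFOXA1.2. The 2 siFOXA1.2 libraries were the highest and the lowest of the line, and the siFOXA1.1 libraries lay within the range of the controls. The change was 0.08 (SE 0.32, adjusted p = 0.892) under siFOXA1.1, with an interval of -0.54 to 0.69, and 0.03 (SE 0.31, adjusted p = 0.994) under siFOXA1.2. In SCaBER it had 0 and 4 counts under siControl.1, 22 and 9 under siControl.2, 0 and 0 under siFOXA1.1 and 1 and 3 under siFOXA1.2. Only the siControl.2 libraries were clearly above the floor, and 1 control library was also at 0. Against a floor of 3 counts over the group (0.246 CPM), ALDH3A1 was at least 6.15-fold lower under siFOXA1.1 than over the 4 controls. The bound was 3.12-fold without replicate 1 of siControl.2, which held 22 of the 35 control counts. From siControl.1 alone, with 4 counts, it was 1.31-fold, so the bound depended on the control. The fit did not pass (adjusted p = 0.294).

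NQO1, the quinone reductase, was the most abundant of the 8 genes and the one that passed under both siFOXA1 siRNAs in RT112. It stood there at 228 and 278 CPM under siControl.1, 115 and 138 under siControl.2, 128 and 111 under siFOXA1.1 and 90.2 and 107 under siFOXA1.2. The siControl.1 libraries were above the other 6, the siFOXA1.1 libraries overlapped siControl.2, and the siFOXA1.2 libraries were below every control. NQO1 fell under siFOXA1.1 (log2 fold change -0.46, SE 0.15, adjusted p = 0.0230) and under siFOXA1.2 (-0.84, SE 0.15, adjusted p = 0.00383), to 0.728 and 0.558 of the control level. Within batches, siFOXA1.1 was -0.34 and -0.81 from the mean of its controls on the log2 CPM scale and siFOXA1.2 was -0.84 and -0.87.

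The 2 control siRNAs differed in NQO1 by more than either siFOXA1 siRNA did from their mean. NQO1 was 1.07 higher on the log2 scale under siControl.1 than under siControl.2 in RT112 (SE 0.17, adjusted p = 0.00117), the 1 member of 7 that passed, against 2.11% of genes. From siControl.1 alone, the NQO1 change was -0.99 under siFOXA1.1 (adjusted p = 0.000182) and -1.37 under siFOXA1.2 (adjusted p = 6.27e-05). From siControl.2 alone, the values were 0.07 (adjusted p = 0.796) and -0.31 (adjusted p = 0.594). The RT112 calls for NQO1 therefore rested on siControl.1. Without replicate 2 of siControl.1, of siControl.2 or of siFOXA1.1 the siFOXA1.1 call was also lost, at adjusted p of 0.0951, 0.0610 and 0.103, and the siFOXA1.2 call held in all 8 such fits, at adjusted p of at most 0.0466. In SCaBER the 2 controls differed in none of the 8 members with edgeR or DESeq2, against 0.0671% of genes. At an unadjusted p under 0.05 it was 2 of 8 (TIPARP and CYP1B1), against 852 of 13407 genes. As siControl.1 minus siControl.2, the other members differed in RT112 by 0.94 (AHR), -0.58 (ARNT), -0.10 (TIPARP), 0.54 (CYP1A1), 1.23 (CYP1B1) and 0.66 (ALDH3A1), and in SCaBER the differences of AHR, ARNT, AHRR, CYP1A1, CYP1B1 and NQO1 were -0.01, 0.49, 1.79, 1.58, 0.90 and 0.24.

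In SCaBER NQO1 stood at 171 and 172 CPM under siControl.1, 130 and 159 under siControl.2, 79.2 and 115 under siFOXA1.1 and 144 and 118 under siFOXA1.2. Both siFOXA1.1 libraries were below all 4 controls, and the siFOXA1.2 libraries overlapped siControl.2. The change under siFOXA1.1 was -0.67 (SE 0.21, adjusted p = 0.0638), outside the threshold, and -0.68 with a replicate block (adjusted p = 0.0338), inside it. It was also inside with DESeq2 (adjusted p = 0.0299), but it stayed outside in 9 of the 13 alternatives. Without replicate 2 of siFOXA1.1, which left 1 library of that siRNA, the change was -0.92. From siControl.1 alone it was -0.79 (adjusted p = 0.0688) and from siControl.2 alone -0.56 (adjusted p = 0.211), both outside in edgeR. Under siFOXA1.2 it was -0.24 (SE 0.20, adjusted p = 1.00), with an interval of -0.64 to 0.16. The siFOXA1.1 changes of NQO1 in the lines did not differ beyond their error (0.20, interval -0.30 to 0.69).

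**Figure D2:**
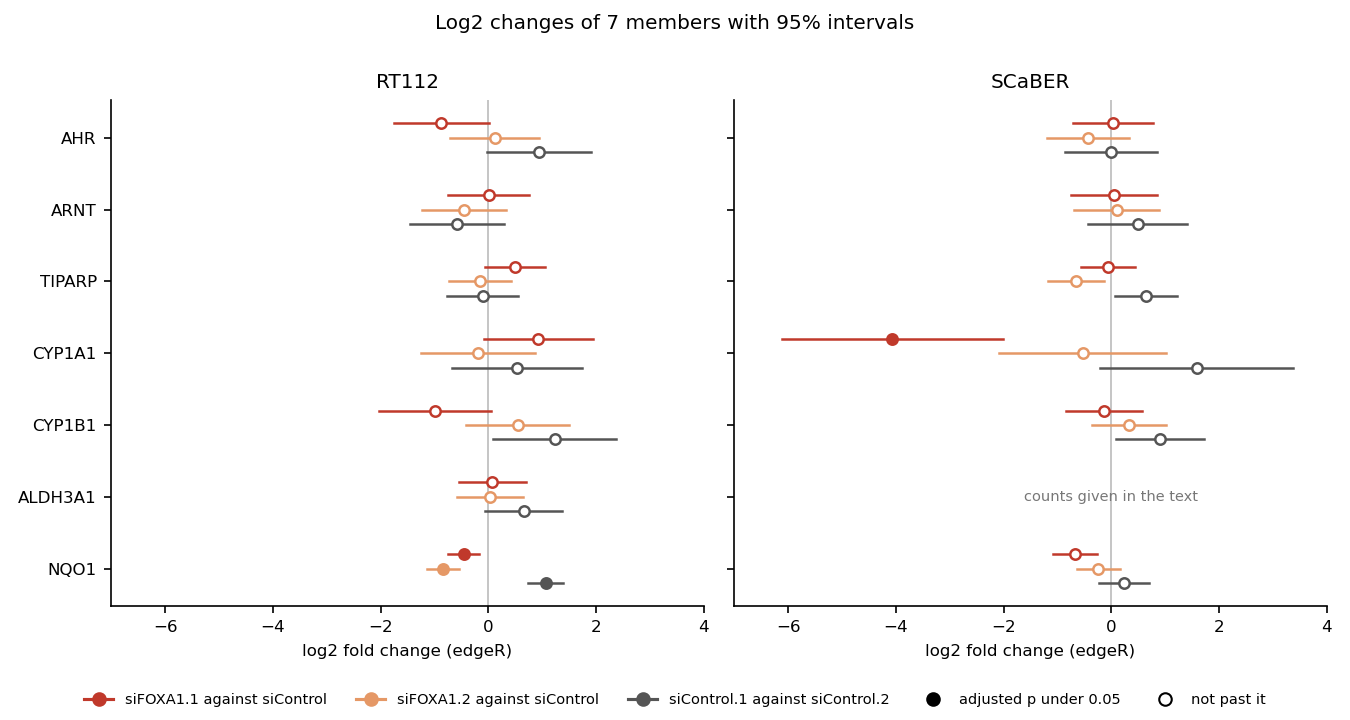
Log2 fold change (x axis, edgeR) of 7 genes in RT112 and SCaBER, with 95% intervals as bars, where filled points passed an adjusted p of 0.05. CYP1A1 in SCaBER (-4.07) and NQO1 in RT112 (-0.46 and -0.84) passed under siFOXA1 siRNAs, and NQO1 also differed between the RT112 controls (1.07). AHRR in both lines and ALDH3A1 in SCaBER are left out for their low counts.

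With both siFOXA1 siRNAs pooled against both controls, 0 of 7 members passed in RT112 with edgeR and 0 with DESeq2, against 0.108% of genes. At an unadjusted p under 0.05 it was 1 of 7 (NQO1), against 1454 of 11986 genes. In SCaBER 0 passed with either tool, against 0.0084% of genes. The unadjusted count there was 1 of 7, again NQO1, against 1059 of 11902 genes. The pooled log2 changes in RT112 were -0.36 for AHR, -0.22 for ARNT, 0.22 for TIPARP, 0.46 for CYP1A1, -0.15 for CYP1B1, 0.02 for ALDH3A1 and -0.73 for NQO1. In SCaBER they were -0.18, 0.05, -0.36, -1.62 and 0.04 for AHR, ARNT, TIPARP, CYP1A1 and CYP1B1, 0.42 for AHRR and -0.45 for NQO1. AHRR in RT112 and ALDH3A1 in SCaBER are left out of these and the following comparisons for their low counts. Between siFOXA1.1 and siFOXA1.2, 0 of 7 members passed in RT112 with edgeR and 0 with DESeq2, against 24.7% of genes. At an unadjusted p under 0.05 it was 2 of 7 (CYP1B1 and NQO1), against 4729 of 13462 genes. In SCaBER 0 of 8 passed with edgeR and 1 (CYP1A1) with DESeq2, against 4.13% of genes with edgeR. The unadjusted count there was 1 of 8, again CYP1A1, against 2259 of 13407 genes. The other members differed in RT112 by -0.99 (AHR), 0.46 (ARNT), 0.65 (TIPARP), 1.11 (CYP1A1), 0.05 (ALDH3A1) and 0.38 (NQO1), as siFOXA1.1 minus siFOXA1.2. In SCaBER the differences were 0.47 (AHR), -0.04 (ARNT), 0.94 (AHRR), 0.60 (TIPARP), -0.47 (CYP1B1) and -0.44 (NQO1). As RT112 minus SCaBER, the siFOXA1.1 changes of AHR, ARNT, TIPARP and CYP1B1 differed by -0.92, -0.06, 0.55 and -0.86, and the siFOXA1.2 changes of AHR, ARNT, TIPARP, CYP1A1, CYP1B1 and NQO1 by 0.55, -0.55, 0.51, 0.34, 0.21 and -0.61.

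Between the lines, 3 of 7 members passed, a share near the 43.4% of all genes. No difference was detected in the receptor and its partner. Under siControl, TIPARP was lower in RT112 (log2 -0.92, SE 0.24, adjusted p = 0.00613), at 24.8 ± 4.99 CPM against 47.1 ± 12.6 (SD, n = 4 each), and no RT112 control reached the lowest SCaBER control. ALDH3A1 was higher in RT112 (4.34, SE 0.62, adjusted p = 4.3e-05), at 30.9 ± 7.95 CPM against 1.55 ± 1.58 (SD, n = 4 each), also without overlap. CYP1B1 was lower in RT112 (-1.19, SE 0.44, adjusted p = 0.0391), at 9.57 ± 4.98 CPM against 22.1 ± 9.88 (SD, n = 4 each), with overlapping ranges. Its call was lost with a replicate block (-1.57, adjusted p = 0.0983) and in 6 of the 8 fits that left out 1 library (adjusted p up to 0.146), whereas TIPARP and ALDH3A1 passed in all 8. These were 3 of 7 members tested, against 43.4% of 12309 genes. The differences of AHR, ARNT, CYP1A1 and NQO1 were -0.05 (interval -0.67 to 0.56), 0.30 (-0.29 to 0.89), 0.02 (-1.09 to 1.13) and 0.29 (-0.19 to 0.76).

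Levels were set between genes on the deposited TPM scale, which divides by gene length. A 3' kit reads transcript ends, so that this division can lower long genes, and the order was also taken on CPM. Under siControl in RT112 the mean TPM ran from NQO1 (113 ± 42.3) through ALDH3A1 (15.4 ± 3.55), TIPARP (9.63 ± 2.00), ARNT (6.17 ± 2.00), AHR (4.13 ± 1.70), CYP1A1 (4.10 ± 2.24) and CYP1B1 (3.08 ± 1.53) to AHRR (0.0825 ± 0.165, SD, n = 4 each). Only NQO1 and AHRR were separated from their neighbours in this order, and the ranges of the other neighbours overlapped. In SCaBER the order was NQO1 (124 ± 17.1), TIPARP (24.0 ± 6.74), CYP1B1 (9.41 ± 4.11), ARNT (6.50 ± 1.60), AHR (5.74 ± 0.687), CYP1A1 (5.45 ± 4.55), ALDH3A1 (1.00 ± 1.02) and AHRR (0.830 ± 0.584). There NQO1 and TIPARP stood apart, as did the 2 lowest genes from the rest. On CPM CYP1A1 and CYP1B1 changed places in RT112, as did AHR and ARNT, and ALDH3A1 and AHRR, in SCaBER, and the CPM ranges of each of these pairs overlapped.

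**Figure D3:**
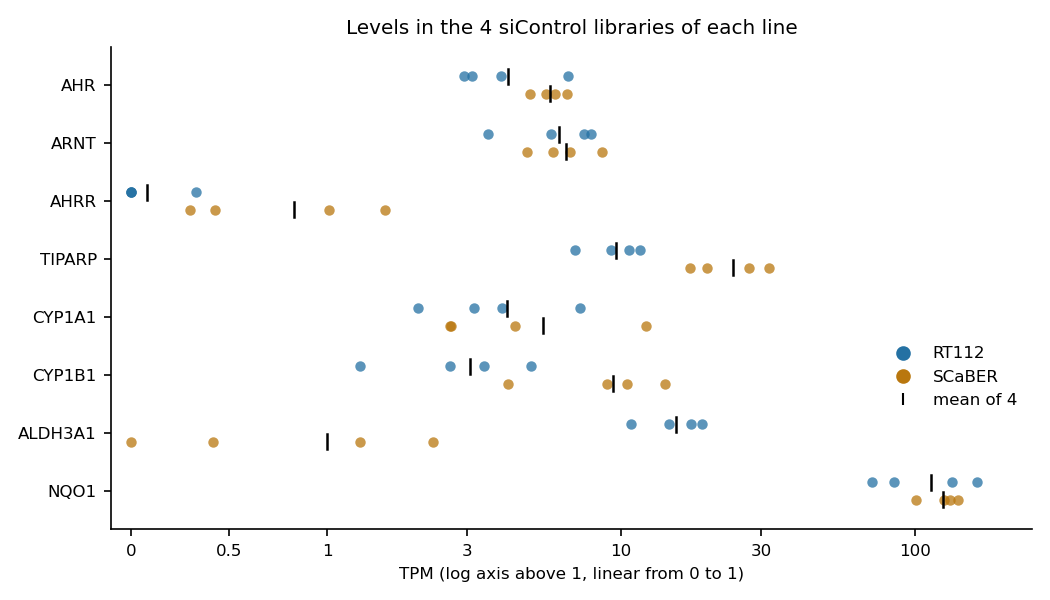
TPM of the 8 genes in the 4 siControl libraries of RT112 (blue) and SCaBER (orange), on an axis that is logarithmic above 1 and linear below, with bars at the means. NQO1 was highest in both lines, ALDH3A1 was second in RT112 (15.4) and near the bottom in SCaBER (1.00), and TIPARP was higher in SCaBER (24.0) than in RT112 (9.63).

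NRF2 pathway genes, of which NQO1 is one of the best known, were followed as a list of 23 others. Under siFOXA1.1 in RT112, 9 of the 22 tested fell and 3 rose, against 29.1% of all genes that passed, with a median log2 change of -0.34 beside -0.02 over all genes. Under siFOXA1.2, 4 fell and 0 rose, against 1.78% of all genes, with a median of -0.36 beside 0.02. AKR1C2, an aldo-keto reductase of steroids, stood at 263 and 271 CPM under siControl.1, 141 and 136 under siControl.2, 41.6 and 24.8 under siFOXA1.1 and 72.4 and 78.1 under siFOXA1.2. It fell under both (-2.42, SE 0.19, adjusted p = 9.6e-09, and -1.34, SE 0.17, adjusted p = 0.000114). Unlike NQO1, it was below both controls taken singly under either siRNA, and its smallest change, siFOXA1.2 from siControl.2, was -0.84 (adjusted p = 0.0335). AKR1C1, its near-identical paralogue, fell by 1.91 and 0.99 (adjusted p = 7.07e-07 and 0.00757), and counts of these paralogues are uncertain because reads can be split between them. NFE2L2, which encodes NRF2 itself, fell under siFOXA1.2 (-0.60, SE 0.14, adjusted p = 0.0323) and under siFOXA1.1 (-0.44, SE 0.14, adjusted p = 0.0230), from 156 to 230 CPM in the controls to 124 to 138 CPM.

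The RT112 controls also differed in this list, with 3 of 22 genes higher under siControl.1 and 0 lower, against 2.11% of all genes that passed. These were FTL, the ferritin light chain (1.16, adjusted p = 2.9e-06), AKR1C2 (1.01, adjusted p = 0.0049) and GPX2, a glutathione peroxidase (0.70, adjusted p = 0.0488). FTL rose under siFOXA1.1 (0.35, adjusted p = 0.00734) and fell under siFOXA1.2 (-0.43, adjusted p = 0.0242), and both calls depended on the control. The rise was 0.93 (adjusted p = 3.32e-06) from siControl.2 alone and the value was -0.23 (adjusted p = 0.134) from siControl.1 alone, and the fall was -1.01 (adjusted p = 1.69e-05) from siControl.1 alone and the value 0.15 (adjusted p = 0.730) from siControl.2 alone. GPX2 fell under siFOXA1.1 (-2.03, SE 0.18, adjusted p = 5.46e-08), to 52.3 and 39.2 CPM from 158 to 265 CPM in the controls. AKR1B10 fell as well (-2.37, SE 0.84, adjusted p = 0.0405), but its siFOXA1.1 values overlapped siControl.2. They were 0.442 to 1.61 CPM, against 1.25 to 4.52 under siControl.2 and 8.42 to 14.8 under siControl.1. OSGIN1 (2.41, SE 0.51) and FTH1, the ferritin heavy chain (0.47, SE 0.09), rose under siFOXA1.1 (adjusted p = 0.00118 and 0.000505). In SCaBER 1 of 22 fell under siFOXA1.1, against 7.87% of all genes, GSR, the glutathione reductase (-1.16, SE 0.32, adjusted p = 0.0349). Under siFOXA1.2 in SCaBER 0 passed with edgeR, against 0.0373% of all genes. The count at an unadjusted p under 0.05 was 2 of 22 there, against 702 of 13407 genes. NFE2L2 in SCaBER stood at 191 to 223 CPM in the controls and 121 to 157 CPM in the 4 siFOXA1 libraries, without overlap, but did not pass (-0.62, adjusted p = 0.0655, and -0.53, adjusted p = 0.802).

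**Figure D4:**
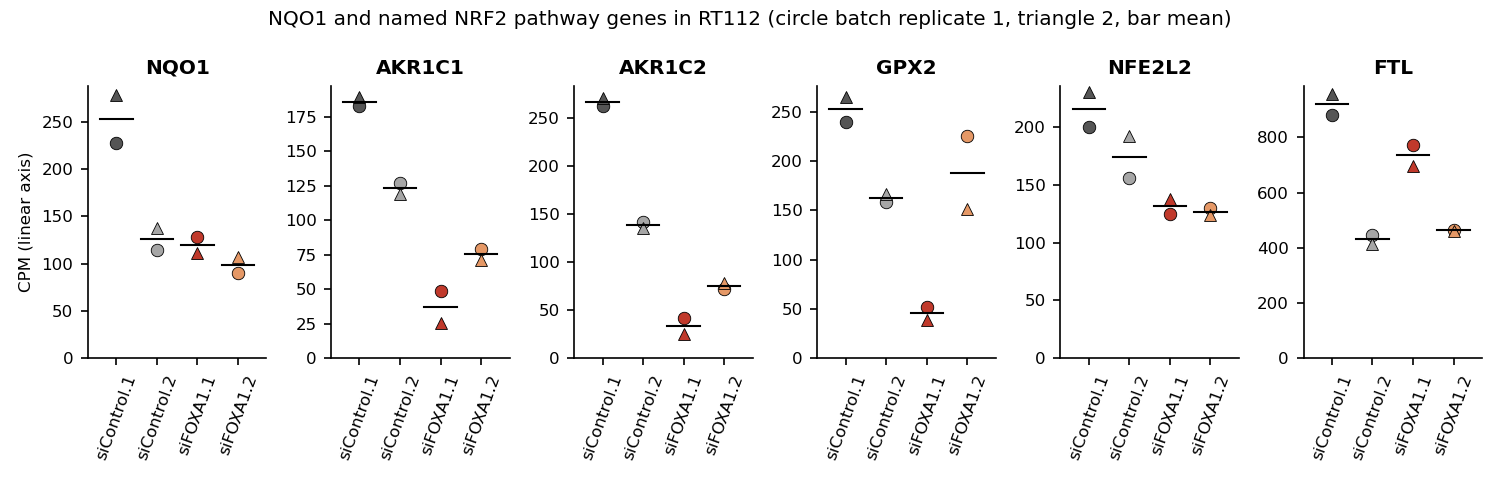
CPM (linear axes from 0) of NQO1 and 5 NRF2 pathway genes in the 8 RT112 libraries, by siRNA, with bars at the mean of 2. NQO1, AKR1C1, AKR1C2, GPX2, NFE2L2 and FTL were highest on average under siControl.1, and AKR1C1 and AKR1C2 were lower in all 4 siFOXA1 libraries than in any control.

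The partners of the receptor were measured as a list of 11, all tested. Under siFOXA1.1 in RT112, 2 rose and 4 fell, against 29.1% of all genes that passed, with a median of -0.02. Among those that rose was the coactivator NCOA3 (0.41, SE 0.13, adjusted p = 0.0223). The coactivator NCOA1 fell (-0.99, SE 0.30, adjusted p = 0.0157), as did the corepressor NRIP1 (-0.95, SE 0.13, adjusted p = 9.14e-06), PTGES3, which encodes p23 (-0.41, SE 0.11, adjusted p = 0.0110), and HSP90AB1 (-0.29, SE 0.08, adjusted p = 0.00751). In the other 3 comparisons with the controls 0 of 11 passed with edgeR, against 1.78% of all genes for siFOXA1.2 in RT112. In SCaBER the shares were 7.87% for siFOXA1.1 and 0.0373% for siFOXA1.2. At an unadjusted p under 0.05 it was 4 of 11 for siFOXA1.2 in RT112, against 1529 of 13462 genes. In both SCaBER comparisons it was 0 of 11, against 2830 and 702 of 13407 genes. The controls differed in this list, with 2 of 11 lower under siControl.1 in RT112, against 2.11% of all genes, and 1 in SCaBER, against 0.0671%. Mean CPM of PTGES3 in RT112 was 265 under siControl.1, 365 under siControl.2 and 216 under siFOXA1.1. For HSP90AB1 it was 2687, 3729 and 2375, so both falls were larger from siControl.2. These means were chosen after they were seen. Between the lines 4 were higher in RT112 and 3 lower, against 43.4% of all genes, from NCOA1 (2.87, SE 0.34) to CREBBP (-0.78, SE 0.14).

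A further 18 genes that AHR is known to regulate in some tissues were followed as well, and 15 of them could be tested in RT112 and 14 in SCaBER. In RT112, 1 rose and 5 fell under siFOXA1.1, against 29.1% of all genes that passed, with a median of -0.48 beside -0.02 over all genes. LPCAT2 rose (0.65, adjusted p = 0.0254), and CYP2S1 (-1.43, adjusted p = 0.0448), the amino acid transporter SLC7A5 (-1.36, adjusted p = 0.00129), the adhesion adaptor NEDD9 (-0.99, adjusted p = 2.67e-05) and the Notch target HES1 (-0.88, adjusted p = 4.42e-05) were among those that fell. Under siFOXA1.1 in SCaBER, 1 rose and 2 fell, against 7.87% of all genes, with a median of -0.05 beside 0.01. PTGS2, the inducible cyclooxygenase, rose there (2.56, SE 0.60, adjusted p = 0.0160), at 13.1 and 20.4 CPM against 1.62 to 4.42 in the controls. SLC7A5 (-0.89, SE 0.21, adjusted p = 0.0144) and cyclin D1, CCND1 (-0.69, SE 0.16, adjusted p = 0.0130), fell in SCaBER. Under siFOXA1.2, 0 passed with edgeR in RT112 and 0 in SCaBER, against 1.78% and 0.0373% of all genes. At an unadjusted p under 0.05 it was 3 of 15 and 6 of 14, against 1529 of 13462 and 702 of 13407 genes.

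Between the lines, 4 of the 15 were higher in RT112 and 7 lower, against 43.4% of all genes that passed, with a median of -1.54 beside 0.02. EREG, the growth factor epiregulin, had at most 1.97 CPM in an RT112 library and 115 to 171 CPM in the SCaBER controls. SERPINB2 (-5.08, SE 0.46, adjusted p = 4.92e-07), FOSL1 (-4.85, SE 0.28, adjusted p = 5.58e-09) and STC2 (-3.03, SE 0.35, adjusted p = 5.52e-06) were lower in RT112, while PTGS2 (3.07, SE 0.39, adjusted p = 1.54e-05), NEDD9 (2.95, SE 0.30, adjusted p = 1.41e-06) and HES1 (2.78, SE 0.19, adjusted p = 2.4e-08) were higher. The NRF2 list divided, with 7 of 22 higher in RT112 and 6 lower, against the same 43.4%. AKR1C2 (6.67), AKR1C1 (5.79), GPX2 (4.33) and AKR1C3 (3.52) were the highest, as ALDH3A1 was (4.34), and ME1 (-2.26), SLC7A11 (-1.85), GCLM (-1.72) and FTH1 (-1.41) the lowest, each at an adjusted p no higher than 0.000141 (edgeR).

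Tryptophan and kynurenine enzymes, only some of which make AHR ligands inside the body, were a list of 9. Under the siFOXA1 siRNAs 0 of 5 tested passed in RT112 and 0 of 7 in SCaBER with edgeR. The shares of all genes that passed were 29.1%, 1.78%, 7.87% and 0.0373% for RT112 siFOXA1.1, RT112 siFOXA1.2, SCaBER siFOXA1.1 and SCaBER siFOXA1.2. In that order, 2, 0, 1 and 2 of the list had an unadjusted p under 0.05. Over all genes it was 5276 and 1529 of 13462 in RT112, and 2830 and 702 of 13407 in SCaBER. Between the lines 1 of 6 was higher in RT112 and 2 were lower, against 43.4% of all genes. KYNU, the kynureninase, stood at 2.50 to 5.39 CPM in the RT112 controls and 36.7 to 102 CPM in the SCaBER controls (-3.93, SE 0.37, adjusted p = 7.17e-07), and KYAT1, a kynurenine aminotransferase, was higher in RT112 (1.25, SE 0.48, adjusted p = 0.0481).

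Across the 8 libraries of a line, the correlation with AHR differed in sign and size among the members. On log2 CPM, the Pearson correlation of AHR with CYP1B1 was 0.81 in RT112 and -0.08 in SCaBER, with CYP1A1 -0.42 and 0.05, with TIPARP -0.33 and 0.29, with NQO1 0.28 and -0.10, and with ARNT -0.21 and -0.63. With ALDH3A1 it was 0.60 in RT112. CYP1A1 followed TIPARP in RT112 (0.79) and NQO1 in SCaBER (0.76). These 8 points per line share siRNAs and depth and are given as a description only.

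The genes with the profile most like a member's were sought by the same correlation among genes with a mean of at least 20 counts (10925 in RT112 and 10689 in SCaBER). For NQO1 they were ELFN2 (0.98), BLVRB (0.97) and DCUN1D1 (0.96) in RT112, and LIN9, PRELID2 and ST3GAL5 (0.96 to 0.97) in SCaBER. For CYP1A1 they were SETD3 (0.99), PALLD (0.99) and ZWILCH (0.98) in SCaBER, and MIER1, HAGHL and HUWE1 (each 0.93) in RT112. For AHR they were TMEM120A (0.98), FZD3 (0.97) and MUL1 (0.97) in RT112 and ZFYVE19, DSTYK and NCBP2 (0.93 to 0.95) in SCaBER. The nearest gene was UFSP2 (0.96) for ARNT, FEM1C (0.96) for TIPARP, PAXIP1 (0.98) for CYP1B1 and TPGS1 (0.96) for ALDH3A1 in RT112, and CGAS (0.93) for ARNT, CD55 (0.97) for TIPARP and SH3D19 (0.95) for CYP1B1 in SCaBER.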

How the data were processed

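The members and the gene lists were chosen with earlier results of these data known, so no count over a list is independent evidence. The authors deposited raw counts per gene and TPM values (corrected for gene length and for the library total). The configuration deposited with the tables names TrimGalore 0.6.2 for trimming (quality at least 20, length at least 10), hg38 as the genome, GENCODE 29 as the annotation, and STAR 2.6.1a as both aligner and counter, with automatic strandedness. The methods of the study name hg19, and 10 ng of siRNA where the labels give 10 nM. Positions and promoters are from the GRCh38.p14 annotation, matched by symbol. Reads of a 3' kit mark transcript ends, so a change of transcript end can change a count. The tables hold no molecular identifiers.

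CPM are counts scaled to the library total. Each line was fitted with 1 mean per siRNA over its 8 libraries in edgeR 4.0.16 (R 4.3.3): TMM, filterByExpr, glmQLFit and glmQLFTest, with Benjamini-Hochberg adjustment. SE is the log2 fold change divided by the square root of F, and the 95% intervals of changes assume a normal spread. Further fits pooled the siRNAs, set the 8 siControl libraries of the lines against each other, and tested the line difference of each change over 16 libraries. AHRR in RT112 failed the filter, and its values are from a fit without it. The 95% counting intervals of count ratios are exact. Scripts were tested on simulated data.

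All 8 members are named in every comparison, except where a member is left out for low counts, with FOXA1 as the check of the knock-down. Of the pathway lists, up to 4 genes per direction are named, those with the largest log2 change among genes past the threshold with a mean of at least 20 counts. GPX2 and FTL between the controls, NFE2L2 under siFOXA1.1 in RT112 and in SCaBER, AKR1C2 between the controls and single-control values of AKR1C2 and FTL were chosen after their values were seen, as were the comparisons with each control alone and the ratios of summed counts without 1 control library. The values of 1 gene that the rule named are not reported here. For likeness, the 3 nearest genes were taken, and fewer are named for some members.

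The labels call the replicate numbers experiment batches, so the numbers pair the samples by the labels. Deviations from the siRNA means correlated between -0.0093 and 0.258 over 12 pairs of same-numbered libraries, and 1 pair was above 0.1. Alternatives were DESeq2 1.42.0, library totals in place of TMM, all genes with at least 1 count, the replicate block, limma 3.58.1 on log2(TPM + 1) for genes with at least 1 TPM in 2 libraries, and leaving out each library.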

Additional observations from a re-analysis of the deposited data

Results flagged for a closer look

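AHR in SCaBER under siFOXA1 had 1 value far from the others, 23.1 CPM in replicate 1 of siFOXA1.1 against 12.8 to 13.6 CPM in the other 3 siFOXA1 libraries. AHRR in the RT112 controls had 1 value of 1.25 CPM in replicate 2 of siControl.2 and 0 in the other 3, and in the RT112 siFOXA1 libraries 1 value of 0.147 CPM, a single count, in replicate 2 of siFOXA1.1 and 0 in the other 3. These were 3 of 32 groups of 4 libraries. The cut-off is set for about 1 in 20 by chance with a normal spread, which AHRR in RT112 lacks. Each group also mixes 2 siRNAs, so no excess can be read from this count. The siFOXA1.1 change of CYP1A1 differed between the lines by 5.00 on the log2 scale in the test of that difference in edgeR (SE 1.07, adjusted p = 0.0133).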

How the results depend on the processing

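Of the recomputed changes of single members, 1354 kept their side of the threshold, 20 came inside it and 15 left it. A change of direction was counted only where either fit passed, so the 1354 include changes of sign. One is AHR between the lines under siControl, with log2 values from -0.44 to 0.21 over the alternatives. The number of members past the threshold stayed within 1.5 times its value in 162 recomputed counts and moved further in 23. Under limma on TPM it went from 1 to 0 for siFOXA1.2 and for the 2 controls in RT112 and for siFOXA1.1 in SCaBER. Library totals gave 1 (CYP1B1) in place of 0 for siFOXA1.1 against siFOXA1.2 in RT112. DESeq2 gave 1 (CYP1A1) in place of 0 for the same comparison in SCaBER. DESeq2 and the fit on all genes with at least 1 count gave 2 (CYP1A1 and NQO1) for siFOXA1.1 in SCaBER and 2 (CYP1A1 and ALDH3A1) for the line difference of siFOXA1.1, where ALDH3A1 had 0 counts in 1 arm. The cause was not tested. With a replicate block the count was 1 (CYP1B1) in place of 0 for siFOXA1.1 against siFOXA1.2 in RT112 and 2 in place of 1 for siFOXA1.1 in SCaBER, and for the lines under siControl CYP1B1 was lost. The block changed no other call of a member.

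Leaving out 1 library at a time, the count ranged from 0 to 2 for siFOXA1.1 in RT112, 0 to 2 for siFOXA1.1 against siFOXA1.2 in RT112, 0 to 1 for siFOXA1.1 in SCaBER, 0 to 1 for siFOXA1.1 against siFOXA1.2 in SCaBER and 1 to 2 for the line difference of siFOXA1.1. For siFOXA1.1 in RT112 it was 0 without replicate 2 of siControl.1 or of siControl.2, and 2 (AHR and CYP1B1) without replicate 2 of siFOXA1.1, where the single library left was assumed to vary like the other groups. Comparisons with siControl.2 alone, chosen after seeing the data, gave 0 in place of 1 for both siFOXA1 siRNAs in RT112 and for siFOXA1.1 in SCaBER, and NQO1 under siFOXA1.1 in RT112 reversed to 0.0749.

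Counts over all genes moved by more than 1.5 times in 11 comparisons. Over the alternatives that kept all libraries they ranged from 57 to 376 for siFOXA1.2 in RT112 (239 as reported), 47 to 449 for the RT112 controls (284), 550 to 1442 for siFOXA1.1 in SCaBER (1055), 4 to 42 for siFOXA1.2 in SCaBER (5), 209 to 865 for siFOXA1.1 against siFOXA1.2 in SCaBER (554), 1 to 91 for the SCaBER controls (9), 0 to 179 and 0 to 213 for the pooled siRNAs in RT112 (13) and SCaBER (1), 453 to 786 for the line difference of siFOXA1.1 (400), 7 to 66 for that of siFOXA1.2 (7), and 3321 to 6340 for the lines (5341, lowest with the replicate block). The median of all genes under siFOXA1.1 in RT112 moved from -0.02 to -0.14 with library totals and to -0.30 with limma on TPM, so changes there are relative to that shift. Depth limits AHRR in RT112, ALDH3A1 and FOXA1 in SCaBER, and CYP1A1 under siFOXA1.1 in SCaBER, each with libraries at or under 3 counts.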

Other observations

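HSP90AA1, which encodes the inducible alpha form of the HSP90 chaperone that holds the unliganded receptor in the cytoplasm, differed between the 2 control siRNAs in both lines. In RT112 it stood at 1824 and 1710 CPM with siControl.1 and at 4911 and 4127 CPM with siControl.2, and the 4 siFOXA1 libraries lay between them, from 2430 to 3539 CPM. In SCaBER the levels were 2598 and 2740 CPM with siControl.1 and 5160 and 5243 CPM with siControl.2, and again the siFOXA1 libraries lay between, from 3444 to 4436 CPM. Relative to siControl.2, siControl.1 was lower by a log2 difference of -1.29 in RT112 (SE 0.10, adjusted p = 1.55e-07 in edgeR) and of -0.98 in SCaBER (SE 0.16, adjusted p = 0.0256). The gene was singled out after its values were seen.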
